A study of Mus musculus with 6 samples.

Results

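The MHC class I genes examined here are the heavy chains H2-K1, H2-D1 and H2-T23, their shared light chain B2m, and Nlrc5, the transactivator of class I genes. They were chosen by gene name, with earlier results of these data known, and are 5 of the 750 genes in the deposited table. The study had named H2-K1, H2-T23 and H2-D1 as differentially expressed in these data. Counts of these genes below are therefore a description and not an independent test. The table is from NanoString nCounter, an assay in which barcoded probes hybridize to transcripts and are counted without amplification. RNA came from TECs (tumor endothelial cells) sorted as live CD45- CD31+ cells from subcutaneous tumors of B16-F10, a melanoma line of the mouse, in C57Blk6 mice. Each mouse received 250000 tumor cells and tumors were taken on day 18. The samples form a WT group of 3 (replicates 1, 4 and 6) and an Atg5BECKO group of 3 (ATG5BECKO in the labels, replicates 2, 3 and 5). According to the methods, both groups carried Atg5 fl/fl alleles. The Atg5BECKO mice also carried Pdgfb-CreERT2, a tamoxifen-inducible Cre active in blood endothelial cells, from a line with a Rosa26 tdTomato reporter, so that Atg5, an essential autophagy gene, is removed from these cells. The WT mice were Cre-negative littermates. The study's mice were of both sexes and aged 7 to 14 weeks, and deletion was induced with daily tamoxifen for 5 days, but whether the WT mice also received it is not given in the sources used here. Whether a sample was 1 mouse or a pool is not given either, so the p-values cover only the scatter among these 6 samples, which may be partly technical. Atg5 is not among the genes analysed, so the deletion was not checked in these values.

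MHC class I molecules carry peptides from inside the cell to its surface, where CD8+ T-cells read them. H2-K1 and H2-D1 encode the classical heavy chains of this mouse strain, H2-T23 encodes the nonclassical chain Qa-1, which is a ligand of the inhibitory receptor CD94/NKG2A on NK cells and T-cells, and B2m encodes β2-microglobulin, without which the heavy chains do not reach the surface. Nlrc5 acts in the nucleus on the proximal promoters of class I genes, where binding sites for NF-κB and interferon regulatory factors (IRFs) lie upstream of an X-box and a CCAAT-like Y-box. Endothelial cells express class I constitutively and raise it in response to interferons and TNF.

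In the RefSeq annotation of GRCm38.p6, the heavy chain genes lie on chromosome 17, H2-K1 at chr17:33996012-34000619, H2-D1 at chr17:35263094-35267497 and H2-T23 at chr17:36029977-36032701. B2m lies on chromosome 2 at chr2:122147687-122153082 and Nlrc5 on chromosome 8 at chr8:94434335-94527272. The 250 bases before the annotated start are shown for the 4 chain genes, because known regulators of class I genes act on this stretch. The sequences come from RefSeq, which held a window for 4 of the 5 genes. The windows are chr17:34000334-34000583 (minus strand, the more downstream of 2 annotated starts) for H2-K1, chr17:35262844-35263093 (plus strand) for H2-D1, chr17:36032702-36032951 (minus strand) for H2-T23 and chr2:122147437-122147686 (plus strand) for B2m. Capitals mark matches, on either strand, to the κB consensus, to an IRF-type element (AANNGAAA), to the core of a cAMP response element (TGACG, part of the X-box region) and to a CCAAT box (CCAAT).
H2-K1: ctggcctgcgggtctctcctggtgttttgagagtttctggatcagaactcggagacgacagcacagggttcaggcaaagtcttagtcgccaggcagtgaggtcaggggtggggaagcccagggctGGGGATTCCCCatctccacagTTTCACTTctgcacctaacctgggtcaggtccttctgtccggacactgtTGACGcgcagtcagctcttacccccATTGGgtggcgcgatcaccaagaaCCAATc
H2-D1: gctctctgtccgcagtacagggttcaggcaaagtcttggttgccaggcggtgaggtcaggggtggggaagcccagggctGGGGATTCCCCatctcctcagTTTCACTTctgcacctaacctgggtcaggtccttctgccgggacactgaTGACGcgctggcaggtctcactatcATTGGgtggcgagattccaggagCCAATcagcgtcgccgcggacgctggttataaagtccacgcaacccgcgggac
H2-T23: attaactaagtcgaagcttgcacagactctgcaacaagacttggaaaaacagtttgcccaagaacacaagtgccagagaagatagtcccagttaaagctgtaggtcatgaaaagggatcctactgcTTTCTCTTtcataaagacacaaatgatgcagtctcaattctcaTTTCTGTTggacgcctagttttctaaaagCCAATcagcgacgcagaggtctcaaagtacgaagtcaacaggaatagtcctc
B2m: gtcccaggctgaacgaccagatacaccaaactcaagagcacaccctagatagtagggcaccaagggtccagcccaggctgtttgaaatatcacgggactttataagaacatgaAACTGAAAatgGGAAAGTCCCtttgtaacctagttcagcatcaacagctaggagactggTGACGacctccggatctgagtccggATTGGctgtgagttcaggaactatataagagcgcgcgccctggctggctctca

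In H2-K1, overlapping κB matches lay at -125 to -115, counted from the start, followed by the IRF-type element at -104 to -97, TGACG at -55 to -51 and CCAAT boxes at -30 to -26 and -6 to -2. H2-D1 held the same elements in the same order from -171 to -49, and the longest run identical between the H2-K1 and H2-D1 windows was 47 bases. In B2m the order of the first pair was reversed, with the IRF-type element at -137 to -130 and the κB match at -126 to -117, before TGACG at -78 to -74 and a CCAAT box at -53 to -49. H2-T23 held 2 IRF-type elements, at -124 to -117 and -81 to -74, and a CCAAT box at -52 to -48. The letters of the κB consensus and of TGACG were not in its window. Of 32851 RefSeq windows of the same length, 7.25% held the κB consensus, 21.3% the IRF-type element, 17.8% TGACG and 33.8% CCAAT, and 0.0822% held all 4, as H2-K1, H2-D1 and B2m did. These matches describe the sequence and are not measured binding sites. As the 4 motifs belong to the class I promoter elements named above, the shares are background only and not a test of these genes.

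**Figure D1:**
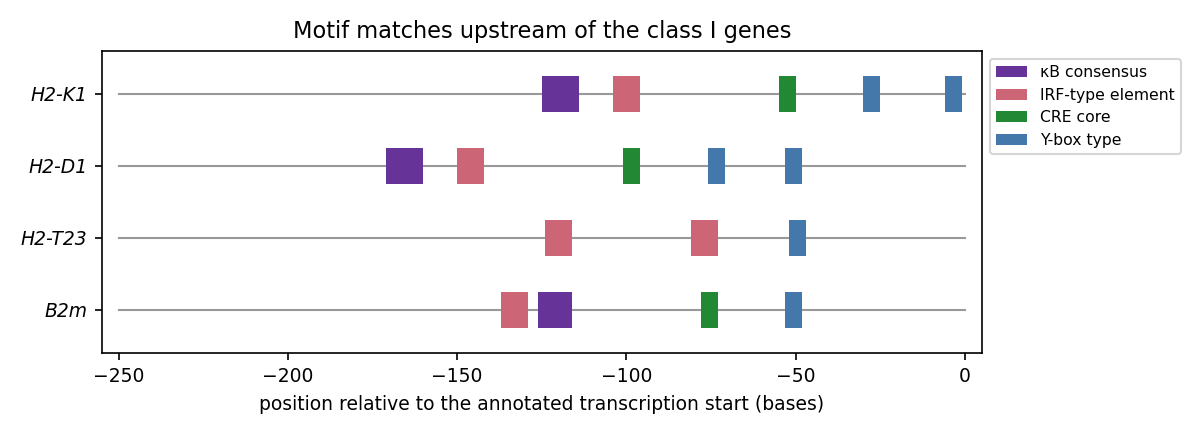
Motif matches in the 250 bases upstream of the annotated start (x axis, bases relative to the start) of 4 class I genes. Each line is 1 gene, with colours for the 4 motifs. CRE core stands for TGACG. Y-box type stands for any CCAAT match on either strand, and which of these matches act as a Y-box was not tested. H2-K1 and H2-D1 share the order of elements, B2m has the κB match and the IRF-type element swapped, and H2-T23 has neither a κB nor a TGACG match.

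Values are log2 counts as deposited, which the authors had normalized with 1 housekeeping factor for each sample. Whole counts could be recovered from the steps of the values in every sample, and summed to between 76784 (WT replicate 6) and 244561 (WT replicate 4). In a principal component analysis of the 379 genes that passed the low-signal filter of the study, the first component held 57.1% of the variance, and on it WT replicate 4 had a score of -13.3, far from the -3.41 to 6.28 of the other samples. Endothelial identity genes, Pecam1, Cdh5, Kdr, Flt1, Tie1 and Robo4, were high in all samples. Their log2 levels averaged 11.84 ± 0.09 (SD, n = 3) in the WT and 11.84 ± 0.27 (SD, n = 3) in the Atg5BECKO group. Over the 379 genes the median log2 fold change (Atg5BECKO minus WT throughout) was 0.24 and 74.4% were positive, so each value below is to be read against that shift.

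All 5 genes had higher normalized counts in every Atg5BECKO sample than in any WT sample. The fold changes were 2.08 for H2-K1, 1.95 for H2-T23, 1.74 for B2m and 1.64 for H2-D1, and 2.31 for Nlrc5, which was under the low-signal filter. The 4 chain genes passed the filter, and all 4 reached the thresholds of the study (0.7 or more on the log2 scale in either direction, with p under 0.05 before adjustment), as did 10.8% of the 379 genes in that direction. These p-values are from limma. By the methods' t-test 3 of the 4 reached the thresholds, without H2-T23, as did 7.65% of the 379 genes. Higher values without overlap between the groups were seen for all 4, and for 25.6% of the 379 genes. With limma and Benjamini-Hochberg adjustment over the 379 genes, 0 of the 4 were called at an adjusted p under 0.05, and 0% of all genes were. At an unadjusted p under 0.05 it was 4 of the 4, against 15.3% of the 379 genes in that direction, and voom on the recovered counts, which models the precision of each count, called 4 of the 4 at an adjusted p under 0.05, against 5.28% of the 379 genes in either direction.

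H2-K1 had log2 levels of 9.09, 9.34 and 9.78 in WT replicates 1, 4 and 6 and of 10.37, 10.44 and 10.58 in Atg5BECKO replicates 2, 3 and 5. The Atg5BECKO samples lay close together, above WT replicate 6 by at least 0.59, while the WT samples were spread more widely. The log2 fold change was 1.06 (standard error 0.22, adjusted p = 0.129 from limma). It was the classical heavy chain with the larger change, at 9.41 ± 0.35 (SD, n = 3) against 10.46 ± 0.10 (SD, n = 3).

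H2-D1, the other classical heavy chain, had log2 levels of 10.70, 10.80 and 10.86 in WT replicates 1, 4 and 6 and of 11.43, 11.52 and 11.55 in Atg5BECKO replicates 2, 3 and 5. The samples of each group agreed closely, at 10.79 ± 0.08 (SD, n = 3) and 11.50 ± 0.06 (SD, n = 3), and the groups were 0.57 apart at their nearest. The log2 fold change of 0.71 (standard error 0.16, adjusted p = 0.129 from limma) was the smallest of the 5 genes and barely above the fold threshold. Without WT replicate 1 it was 0.67 and without Atg5BECKO replicate 5 it was 0.68, both below that threshold. In each case 2 of the 4 chain genes, H2-K1 and B2m, reached the thresholds, against 10% of the 379 genes without WT replicate 1 and 9.76% without Atg5BECKO replicate 5. H2-K1 and H2-D1 are close paralogs, and how far their probes cross-hybridize was not tested.

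H2-T23 was expressed at a lower level, with log2 values of 6.87, 6.35 and 7.58 in WT replicates 1, 4 and 6 and of 7.76, 8.04 and 7.89 in Atg5BECKO replicates 2, 3 and 5. WT replicate 6 came within 0.17 of the lowest Atg5BECKO sample, replicate 2, with recovered counts of 99 and 240. The 95% Poisson intervals of these samples, 7.28 to 7.87 and 7.57 to 7.94, overlapped. The interval of WT replicate 6 also overlapped that of Atg5BECKO replicate 5, 7.71 to 8.07, and barely that of replicate 3, 7.86 to 8.21. The log2 fold change was 0.96 (standard error 0.32, adjusted p = 0.185 from limma). It was 0.67 without WT replicate 4 and 1.29 without WT replicate 6, so the size of the difference rests on which WT samples are counted. Such intervals cover counting error only.

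B2m, which pairs with all these heavy chains, had log2 levels of 11.72, 11.82 and 12.03 in WT replicates 1, 4 and 6 and of 12.62, 12.70 and 12.65 in Atg5BECKO replicates 2, 3 and 5. It was the most abundantly counted of the 5 and ranked between 5 and 11 among the 750 genes in WT TECs and between 2 and 3 in Atg5BECKO TECs. The log2 fold change was 0.80 (standard error 0.17, adjusted p = 0.129 from limma), with 11.85 ± 0.16 (SD, n = 3) against 12.66 ± 0.04 (SD, n = 3). Its share of a sample's own counts uses the total count in place of the housekeeping factor, and so depends on the other genes. This share was 2.13%, 2.33% and 2.81% in WT replicates 1, 4 and 6 and 3.73%, 3.26% and 4.01% in Atg5BECKO replicates 2, 3 and 5. The nearest of these, WT replicate 6 (95% Wilson interval 2.69% to 2.93%) and Atg5BECKO replicate 3 (3.19% to 3.34%), did not overlap. Wilson intervals too cover counting error only, not the scatter between samples. With samples scaled to the total count, the log2 fold change of B2m was 0.60, below the fold threshold.

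Nlrc5 was under the low-signal filter and was therefore fitted with all 750 genes. Its log2 levels were 4.14, 4.10 and 4.76 in WT replicates 1, 4 and 6, where recovered counts were 19, 27 and 14, and 5.76, 4.90 and 5.97 in Atg5BECKO replicates 2, 3 and 5, where they were 60, 29 and 66. It lay above 55.0%, 85.7% and 60.9% of the filtered-out genes in WT replicates 1, 4 and 6 and above 99.7%, 93.8% and 99.5% of them in Atg5BECKO replicates 2, 3 and 5. The nearest samples in this respect were WT replicate 4 and Atg5BECKO replicate 3. Atg5BECKO replicate 3, at 4.32 to 5.42 (95% Poisson interval), was not separable from WT replicate 6 at 3.89 to 5.51. The interval of Atg5BECKO replicate 3 also overlapped those of WT replicates 1 and 4, so it overlapped every WT sample. That of Atg5BECKO replicate 2 overlapped the interval of WT replicate 6 only. The log2 fold change was 1.21 (standard error 0.37, adjusted p = 0.447 from limma over 750 genes). It reached the thresholds of the study, as did 5.73% of the 750 genes in that direction, and its groups did not overlap, as for 13.7% of them. Without Atg5BECKO replicate 5 the log2 fold change was 0.99 and the unadjusted p from limma rose to 0.052. After scaling to the endothelial identity genes or to the total count the Nlrc5 groups overlapped. Centring on the median of the 379 filtered-in genes left them almost touching, at 4.744 for the lowest Atg5BECKO and 4.743 for the highest WT sample. The log2 difference was then 0.83.

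**Figure D2:**
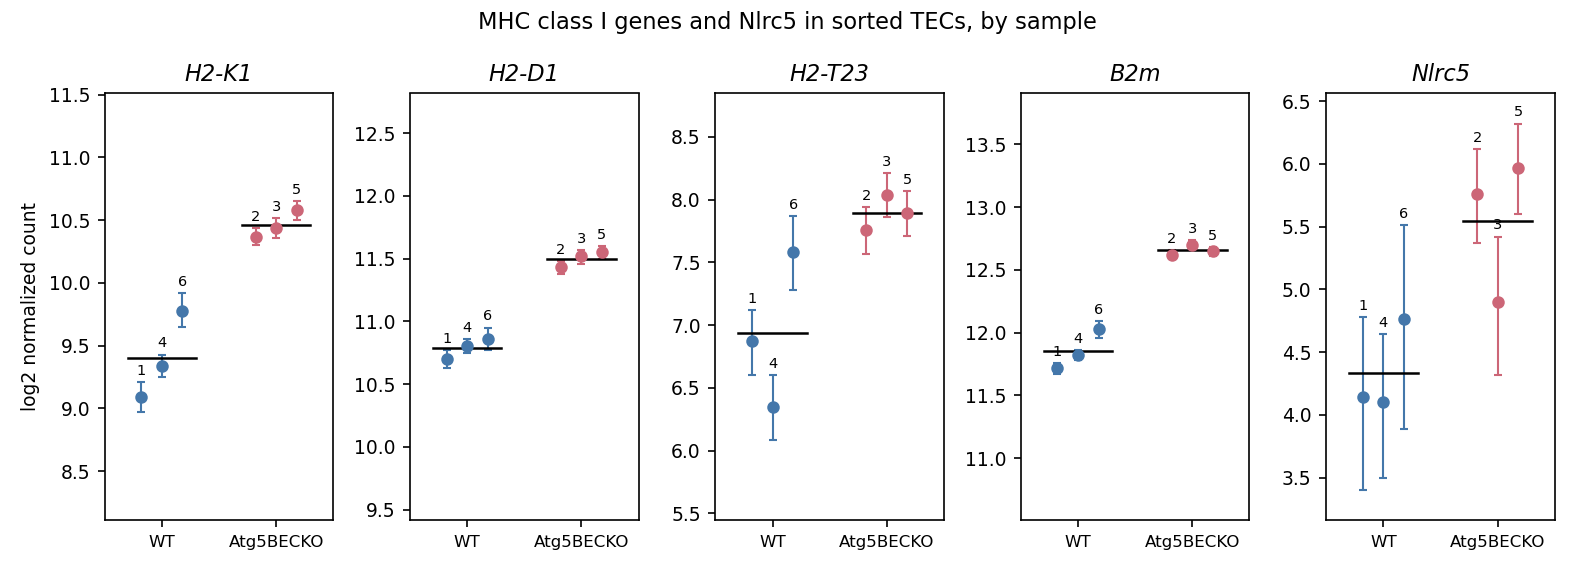
Log2 normalized counts (y axis, the same span in each panel) of the 5 genes in the 3 WT and 3 Atg5BECKO samples, with the replicate number above each point, 95% Poisson counting intervals as bars and the group mean as a line. All Atg5BECKO points lie above all WT points, with the narrowest gaps in H2-T23 (WT replicate 6) and Nlrc5 (Atg5BECKO replicate 3).

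For a single gene, an exact two-sided permutation test over 3 against 3 samples gave p = 0.1 for each of the 5, the smallest that this design allows. The order of the samples was shared in part. WT replicate 6 was the highest WT sample for all 5 genes, and it is also the sample with the fewest counts. Without it, limma called 3 of the 4 chain genes at an adjusted p under 0.05 (H2-K1, H2-T23 and B2m, adjusted p of 0.0411, 0.0438 and 0.0473), against 4.75% of the 379 genes, and H2-D1 had 0.0616. Without WT replicate 4, which stood apart, the log2 fold changes were 1.02 for H2-K1, 0.72 for H2-D1, 0.67 for H2-T23 and 0.78 for B2m, against a median of 0.11 over the 379 genes, and 1.09 for Nlrc5.

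The size of the differences depended on the scaling of the samples. After centring each sample on the median of the 379 genes, the log2 fold changes were 0.68 for H2-K1, 0.59 for H2-T23, 0.42 for B2m and 0.33 for H2-D1, and 0 of the 4 reached the fold threshold, against 4.49% of the 379 genes reaching both thresholds in that direction. The median of the 379 genes was then -0.14, so the excess over it was as before, 0.81 for H2-K1, 0.72 for H2-T23, 0.56 for B2m and 0.47 for H2-D1. The lowest Atg5BECKO and highest WT values were then 10.205 and 9.765 for H2-K1, and 11.263 and 11.184 for H2-D1. For B2m they were 12.396 and 12.202, and for H2-T23 they nearly met, at 7.592 and 7.565. The share of the 379 genes without overlap at this scaling was not counted. Scaling to the 6 endothelial identity genes gave 1.05, 0.96, 0.80 and 0.71 for H2-K1, H2-T23, B2m and H2-D1. Scaling to the total count, which was added after the data were seen, gave 0.86, 0.77, 0.60 and 0.51. There 1 of the 4 (H2-K1) reached the thresholds, against 5.54% of the 379 genes, and the H2-T23 groups overlapped. After quantile normalization it was also 1 of the 4 (H2-K1), against 5.54% of the 379 genes.

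**Figure D3:**
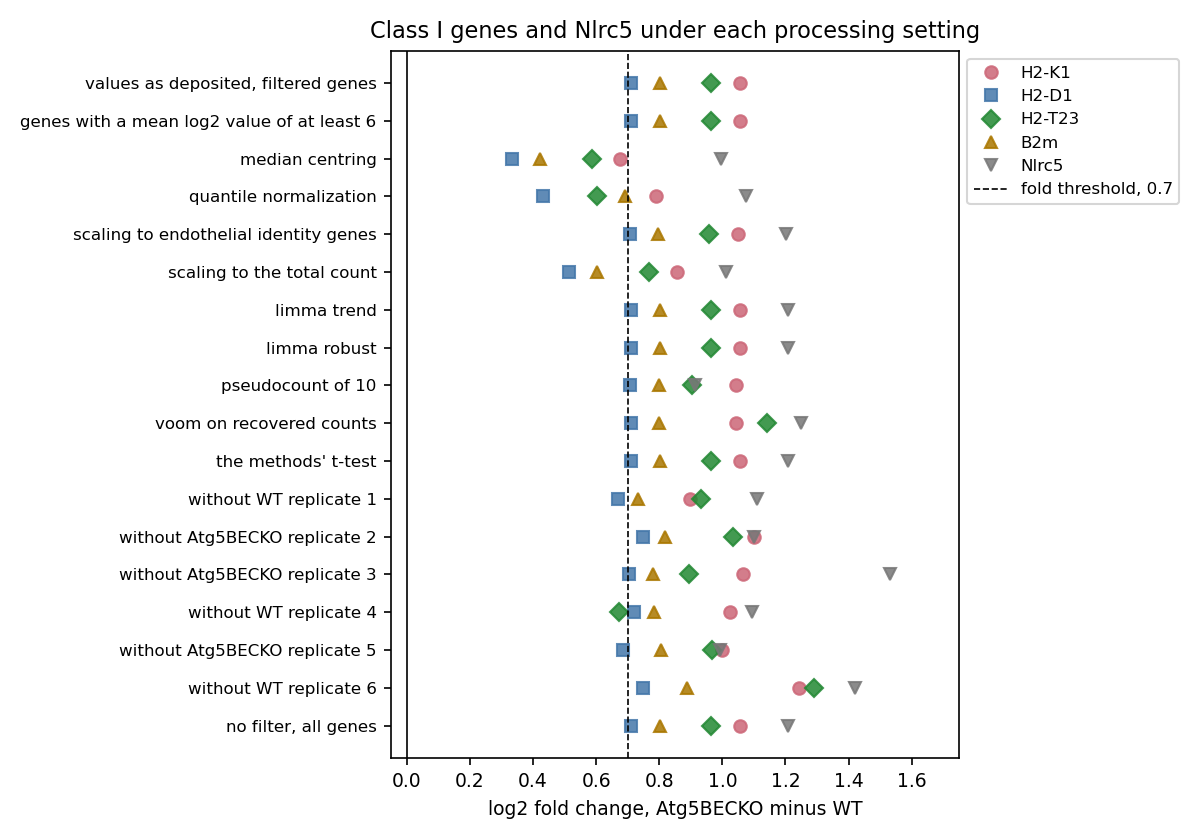
Log2 fold change (x axis, Atg5BECKO minus WT) of the 5 genes under each processing setting (rows), with the fold threshold of 0.7 as a dashed line. Every point is above 0, and after median centring the 4 chain genes lie between 0.33 and 0.68. The Nlrc5 points come from fits of all 750 genes, so its median centring used the median of all 750.

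To compare the heavy chains with their light chain, log2 ratios to B2m were taken within each sample. Scaling by 1 factor for each sample cannot change these ratios. Quantile normalization can, and the ratios were not taken after it. For H2-K1 the ratio was -2.62, -2.48 and -2.24 in WT replicates 1, 4 and 6 and -2.25, -2.26 and -2.07 in Atg5BECKO replicates 2, 3 and 5. The means differed by 0.25 (-2.20 ± 0.11 against -2.45 ± 0.19, SD), and the groups overlapped at WT replicate 6 (exact two-sided permutation p = 0.3). For H2-D1 the ratio was -1.02, -1.02 and -1.17 in WT replicates 1, 4 and 6 and -1.19, -1.18 and -1.09 in Atg5BECKO replicates 2, 3 and 5. Here the difference was -0.09 (exact two-sided permutation p = 0.2), and again WT replicate 6 lay among the Atg5BECKO samples. For H2-T23 the ratio ranged from -5.47 to -4.44 in WT TECs and from -4.87 to -4.66 in Atg5BECKO TECs, and the difference of 0.16 (exact two-sided permutation p = 0.8) turned to -0.11 without WT replicate 4. No change of a heavy chain relative to B2m was detectable with 3 samples a group, where p cannot go below 0.1.

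**Figure D4:**
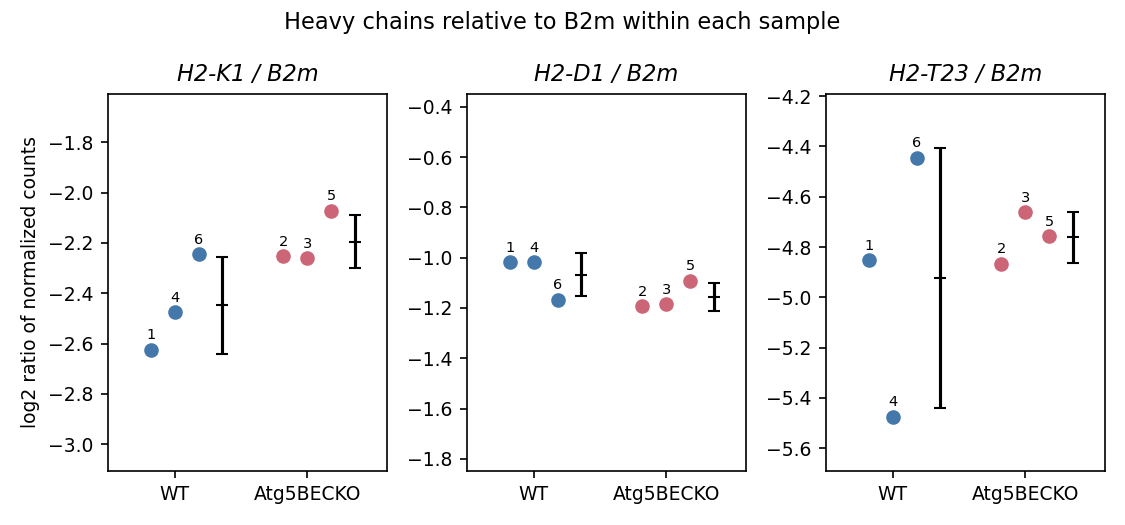
Log2 ratio of each heavy chain to B2m (y axis, the same span in each panel) within each sample, labelled by replicate number, with the group mean ± SD (n = 3) beside the points. The groups overlap for all 3 heavy chains, with differences of 0.25 for H2-K1, -0.09 for H2-D1 and 0.16 for H2-T23.

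Genes that supply peptides to class I molecules had smaller fold changes. Of 7 in the table (the immunoproteasome subunits Psmb8, Psmb9 and Psmb10, the peptide transporter genes Tap1 and Tap2, the tapasin gene Tapbp and its relative Tapbpl), 6 passed the filter. All 6 had a positive log2 fold change, with a median of 0.41 against 0.24 over the 379 genes, and 0 reached the thresholds of the study. Tap1 had the largest at 0.50 (standard error 0.22, adjusted p = 0.305 from limma), and Tapbp, which holds empty class I molecules at the transporter, had 0.43 (standard error 0.17, adjusted p = 0.264). The groups of 4 of the 6, Psmb8, Tap1, Tap2 and Tapbp, did not overlap, against 25.6% of the 379 genes with higher values and no overlap. The table held 6 other class I and class I-like chains, H2-M3, H2-Q1, H2-Q2, H2-Q10, Cd1d1 and Fcgrt, and the groups overlapped for each of them. Of these 6, 4 passed the filter and 0 reached the thresholds, with a median log2 fold change of 0.10. H2-Q2 had 0.08 (standard error 0.54). H2-Q1 and H2-Q10 were under the filter. Fitted with all genes of the table, they had 0.80 (standard error 0.61) and 0.66 (standard error 0.53). H2-M3, which presents formylated peptides, had 0.27 (standard error 0.23), the lipid-presenting Cd1d1 had 0.12 (standard error 0.27) and the neonatal Fc receptor gene Fcgrt, whose product also pairs with β2-microglobulin, had -0.31 (standard error 0.19, adjusted p = 0.433 from limma). Whether these differed from the 4 chain genes was not tested.

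Among genes of the interferon route to class I, Irf1, a transcription factor that binds IRF elements of class I promoters, had log2 levels of 7.95 ± 0.34 (SD, n = 3) in WT and 8.80 ± 0.10 (SD, n = 3) in Atg5BECKO TECs. Its log2 fold change of 0.84 (standard error 0.22, adjusted p = 0.145 from limma) reached the thresholds. It was the only 1 of the 9 tested of 12 to do so, a share close to the 10.8% of all 379 genes, and the list median was 0.35. Jak2 had 0.53 (standard error 0.30), Stat2 0.40 (standard error 0.22) and Ifnar1 0.36 (standard error 0.17). Jak1 had 0.35 (standard error 0.17), Ifngr1 0.27 (standard error 0.17) and the interferon-γ receptor chain Ifngr2 -0.06 (standard error 0.22). Of the 9, 8 had a positive log2 fold change, all but Ifngr2, against 74.4% of the 379 genes. The groups of 4 of the 9, Irf1, Ifnar1, Jak1 and Ifngr1, did not overlap, against 25.6% of the 379 genes with higher values and no overlap. Of 8 genes of the NF-κB route, 8 were tested and 2 reached the thresholds, against 10.8% of the 379 genes, with a list median of 0.53. These were Nfkbia, the inhibitor IκBα, with 1.16 (standard error 0.33), and Nfkbie, another inhibitor of this family, with 0.78 (standard error 0.21). The subunit genes Nfkb2, Relb and Rela had 0.69 (standard error 0.22), 0.65 (standard error 0.18) and 0.40 (standard error 0.17), and none of them reached the thresholds. All 8 had a positive log2 fold change, against 74.4% of the 379 genes. The groups of 6 of the 8, all but Ikbkb and Ikbkg, did not overlap, against 25.6% of the 379 genes with higher values and no overlap. Of 8 MHC class II genes, which present peptides from outside the cell, only H2-Aa and H2-Ab1 passed the filter, and their groups overlapped. On the log2 scale the difference was 0.19 for H2-Aa (standard error 0.46) and 0.58 for H2-Ab1 (standard error 0.31).

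**Figure D5:**
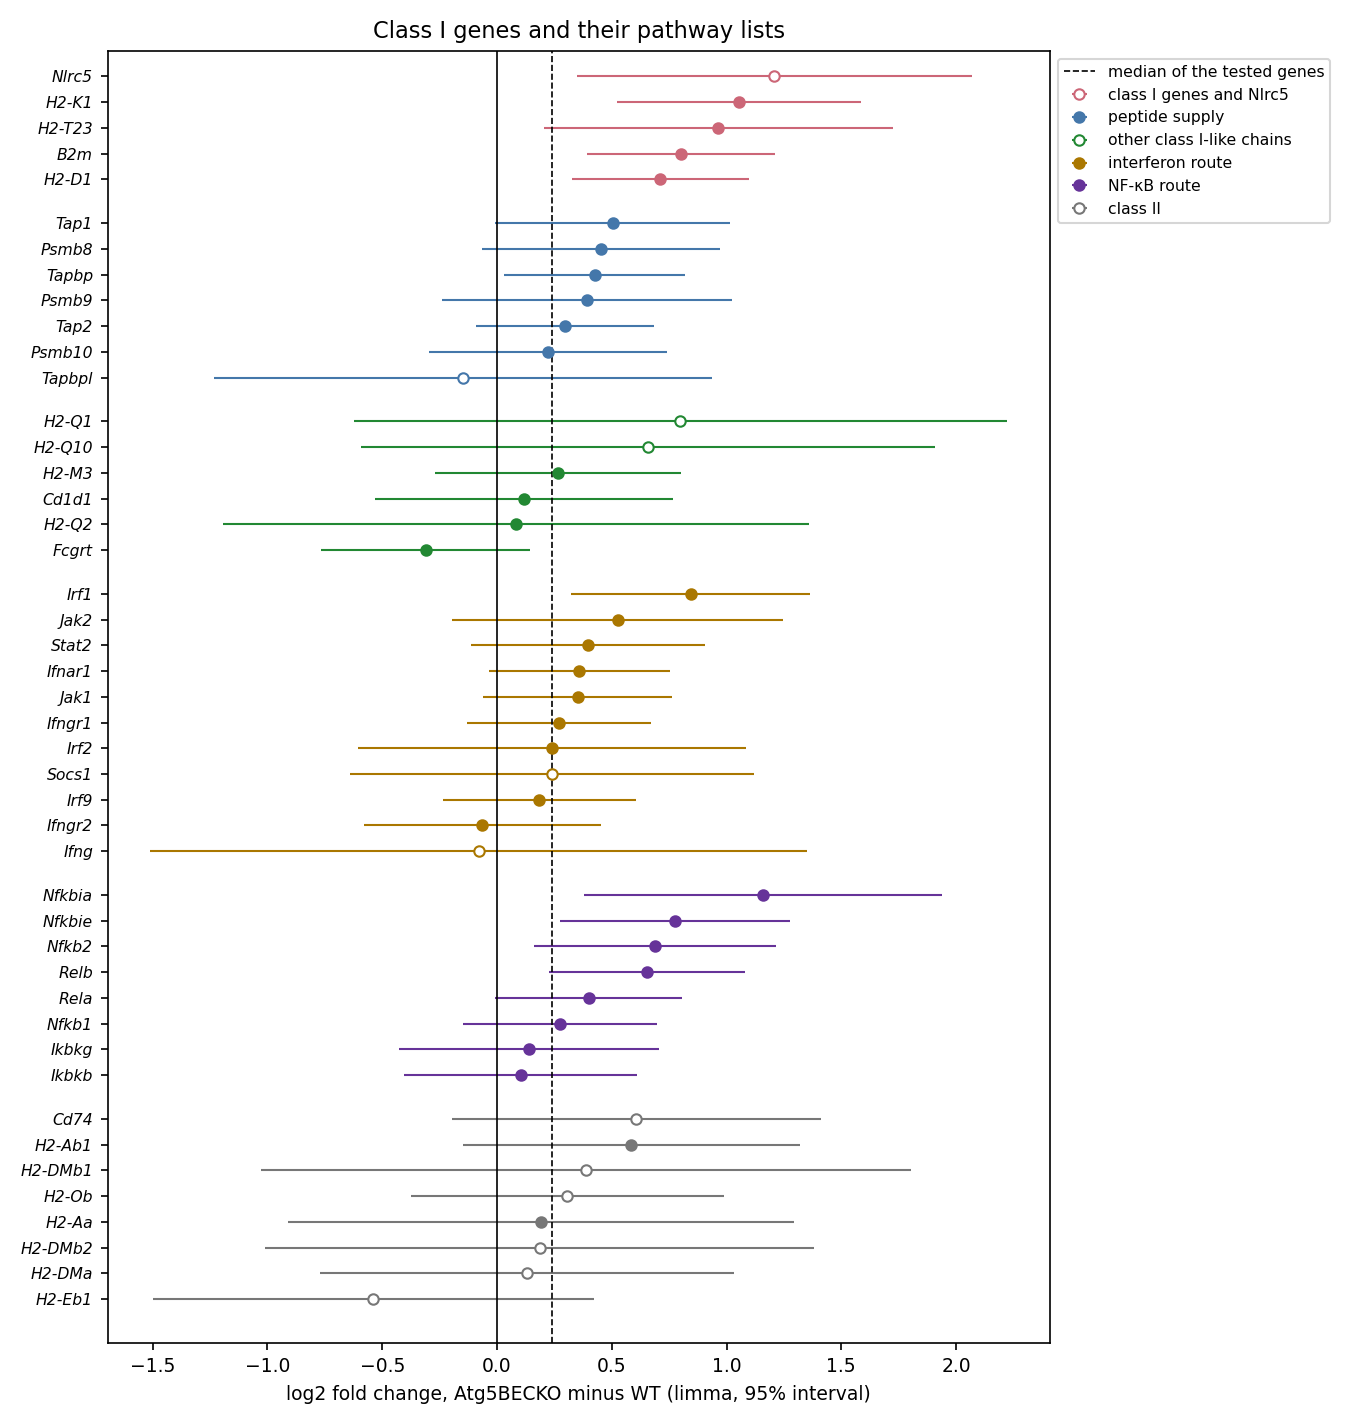
Log2 fold changes (x axis, Atg5BECKO minus WT) with 95% intervals from limma for the class I genes, Nlrc5 and genes of 5 pathway lists, 1 row a gene. Filled points passed the low-signal filter, open points come from the fit of all 750 genes, and the dashed line is the median of the 379 tested genes, 0.24.

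Other cells in the sort would bring class I transcripts of their own, and in bulk RNA fewer cells of a type and less RNA per cell cannot be told apart. Of 23 leukocyte markers, 6 passed the filter. Their summed normalized count over all 23 ran from 554.5 to 699.7 in Atg5BECKO TECs and from 322.9 to 855.6 in WT TECs, with the highest sum in WT replicate 6. Most of these markers were under the filter, and WT replicate 6 also had the highest median log2 level of the filtered-out genes, 4.54 against 3.35 to 4.10 in the other samples. WT replicate 4 was lowest in both, and the sum and this median ordered the samples nearly alike. The part of leukocyte RNA in the class I differences was not tested. No marker was at 0, and the recovered counts of Ptprc, which encodes CD45, ran from 16 to 56 and those of Cd3e from 4 to 17. Cd14 was the only 1 of the 6 to reach the thresholds, against 10.8% of the 379 genes, at a log2 difference of 0.97 (standard error 0.27). The summed level of 5 fibroblast and mural cell markers was lower in Atg5BECKO TECs (175.6 to 259.6) than in WT TECs (278.8 to 750.3). Of these, Col6a3, Olfml2b and Thy1 passed the filter, with log2 fold changes of -1.54, -1.39 and -1.10. Pdgfrb (-0.93) and Fap (0.17) were under it, and their groups overlapped. The summed level of 4 immediate-early genes was higher (7127 to 12350 against 3675 to 5677). Neither sum overlapped between the groups, and the part of these genes in the class I differences was not tested. Melanocyte markers (Mlana and Sox10) summed to 32.9 to 53.2 in Atg5BECKO TECs and 36.9 to 85.1 in WT TECs.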

How the data were processed

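The authors counted RNA from 6 samples on a NanoString nCounter panel and normalized the counts in nSolver with housekeeping genes, with no background subtracted. They deposited log2 values of 750 genes, used here as they stand. Genes were kept where the study's own low-signal filter kept them (379), by name only. Whole counts were recovered from the step of each sample's values within a tolerance of 0.01. Atg5BECKO and WT samples, grouped by their titles, were compared with lmFit and eBayes of limma 3.58.1 (R 4.3.3), with Benjamini-Hochberg adjustment over all genes in the fit. Within-sample ratios were compared by exact two-sided permutation. Named genes are the 5 class I genes, the members of the pathway and marker lists, and the 5 genes most similar in pattern to the chain genes and the 5 most similar to Nlrc5. Members and lists were chosen with earlier results of these data known. For 1 gene of the interferon list, values are not reported here. The authors' own fold changes and p-values were not used. Alternatives were other filters, scalings, variance priors, a pseudocount of 10, voom, the methods' t-test and leaving out each sample. Figures used matplotlib 3.10.9.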

Additional observations from a re-analysis of the deposited data

How the results depend on the processing

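The log2 fold changes of the 5 genes stayed above 0 in all alternatives run, 17 for each chain gene and 15 for Nlrc5. In the fit as described, 0 chain genes were called at an adjusted p under 0.05, and voom on the recovered counts called 4, with log2 fold changes of 1.04 for H2-K1, 0.71 for H2-D1, 1.14 for H2-T23 and 0.80 for B2m. Leaving out each sample in turn called 0 to 3 of them, 3 without WT replicate 6, with log2 fold changes from 0.90 to 1.24 for H2-K1, 0.67 to 0.75 for H2-D1, 0.67 to 1.29 for H2-T23, 0.73 to 0.89 for B2m and 0.99 to 1.53 for Nlrc5. The thresholds of the study were reached by 4 chain genes, by 3 with the methods' t-test (H2-T23 did not reach them), by 0 after median centring, by 1 after quantile normalization, by 1 after scaling to the total count, and by 2 to 4 when a sample was left out, with 2 without WT replicate 1 and 2 without Atg5BECKO replicate 5. The difference of H2-T23 to B2m ran from -0.11 (without WT replicate 4) to 0.40 when a sample was left out. Causes were not tested. Sampling noise limits Nlrc5 most, with recovered counts of 14 to 66, and the least deep sample, WT replicate 6. Replicate numbers are not shared between the groups and the litter of each sample is not given, so no paired analysis was possible.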

Other observations

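The genes whose values followed the class I chains most closely were ranked by Pearson's correlation over the 6 samples with the mean of the centred log2 values of H2-K1, H2-D1, H2-T23 and B2m. The points share the scale factor of each sample and fall into the 2 groups, so the correlations are a description only. Of 375 genes, the highest were Irf1 (0.991), the antiviral interferon-induced gene Rsad2 (0.987), the peptide transporter gene Tap2 (0.977), the endocytic adaptor gene Dab2 (0.974) and the integrin gene Itga1 (0.973). Their log2 levels in Atg5BECKO and WT TECs were 8.80 ± 0.10 and 7.95 ± 0.34 (SD, n = 3) for Irf1, 7.36 ± 0.12 and 6.03 ± 0.58 (SD, n = 3) for Rsad2, and 7.36 ± 0.05 and 7.07 ± 0.09 (SD, n = 3) for Tap2. Tap2 had a log2 fold change of 0.30 only, with little spread within the groups. For Nlrc5 the highest were the interferon-induced GTPase gene Gbp2 (0.980), Zeb1 (0.973), Stat2 (0.963), Eif2ak2 (0.962) and Dtx3l (0.959), and Gbp2 had 8.25 ± 0.50 and 7.07 ± 0.42 (SD, n = 3). As with Nlrc5, Gbp2 varied among the Atg5BECKO samples.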
